A study of Mus musculus with 4 samples.

Results

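The genes described here are the subunits of the activins and inhibins, their extracellular antagonists and the receptors of this branch of the TGF-beta family, in mouse ovaries at E13.5, a stage of mid-gestation. They were chosen by name, and all 10 were found among the 34682 gene symbols of the count table. Inha, Inhba and Inhbb encode the ligand subunits, Fst and Fstl3 the antagonists, Acvr2a, Acvr2b and Acvr1b the activin receptors, Tgfbr3 the inhibin co-receptor and Amhr2 the receptor of anti-Müllerian hormone. The study asked what expression of Sall1, a transcription factor gene, does in the ovary. RNA-seq libraries were compared from 2 mutant and 2 wild-type samples of whole developing ovaries, numbered 1 and 2 within each genotype. Mutant ovaries carried a BAC, a large genomic insert, in which the promoter and regulatory elements of Wt1 drive the coding sequence of Sall1. Wt1 is expressed in somatic cells of the gonad, so germ cells are not the intended site of expression. The BAC was placed by piggyBac transposition into female mouse embryonic stem cells, from which the transgenic mice were made by morula aggregation, and both genotypes keep the endogenous Sall1 gene. The wild-type samples received no treatment. The stem cells had a C57BL/6J or a C57BL/6J-129 hybrid background. For the controls the sources differ, since the methods give gonads of wild-type CD1 mice for RNA-seq, the results call the controls littermates, and B6 appears in the wild-type column names. Whether the genotypes differed in background was therefore not settled, and its part in any difference was not tested. The number of embryos in a library and of cell clones behind the mutants is not given in the sources used here, so the p-values below measure only the spread between these libraries, which may be technical.

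Activins are dimers of beta subunits, which Inhba (beta A) and Inhbb (beta B) encode, whereas inhibins pair the alpha subunit from Inha with a beta subunit. An activin is bound by a type II receptor (ACVR2A or ACVR2B), which recruits and phosphorylates a type I receptor such as ACVR1B, and the signal passes to SMAD2 and SMAD3. Follistatin, the product of Fst, and the related FSTL3 bind activin and keep it from its receptors, while inhibin competes for the type II receptors with the help of betaglycan, the product of Tgfbr3. In the fetal mouse ovary follistatin is a marker of pre-granulosa cells, the supporting cells of the ovary, and acts downstream of Wnt4. It is known there for holding back activin B, and with it the formation of a testis-like coelomic vessel.

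The total count was between 11036313 and 17869840 per library, and the mutant libraries were the shallower ones. Sall1, the gene carried by the BAC, had 1243 and 1445 counts in the mutant and 279 and 223 in the wild-type libraries, and its log2 fold change was 2.85 with a standard error (SE) of 0.16 (adjusted p = 0.00823 by edgeR's quasi-likelihood F-test, adjusted over all genes as described by Benjamini and Hochberg). For Wt1 itself the log2 fold change was 0.03 (SE 0.10). Of 15442 genes tested, 9 passed at an adjusted p of 0.05. This number was 130 without mutant replicate 1, 38 without mutant replicate 2 and 4 without wild-type replicate 2. Each of 7 pre-granulosa and 7 germ cell markers was detected, with summed levels of 529 to 609 and 1570 to 1801 CPM (counts scaled by library size after TMM normalization, which adjusts for library composition), as in an ovary. Markers of Sertoli cells, fetal Leydig cells, adrenal cortex and the mesonephric duct and tubule summed to at most 20.5, 57.1, 3.27 and 51.7 CPM. Blood cell markers lay between 869 and 3489 CPM. Skeletal muscle markers summed to 199 CPM in wild-type replicate 1, 33.1 CPM in mutant replicate 1, 9.12 CPM in wild-type replicate 2 and 5.92 CPM in mutant replicate 2, so one library of each genotype held more muscle transcripts than its partner.

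Promoter sequences (250 bases before to 50 after the gene start, RefSeq, build GRCm38.p6) are given for the member with the largest difference between genotypes, Inhbb, and for the most highly expressed member, Amhr2. Of the 10 members, 8 matched an entry of the promoter table, and the others were Fst and Tgfbr3. Each sequence runs 5′ to 3′ on the strand of its gene. Capitals in Inhbb mark a GC box (GGGCGG, here on the reverse strand) and capitals in Amhr2 mark the letters CAAGGTCA, the site of the gonadal nuclear receptor NR5A1.
Inhbb, chr1:119422199-119422498, minus strand: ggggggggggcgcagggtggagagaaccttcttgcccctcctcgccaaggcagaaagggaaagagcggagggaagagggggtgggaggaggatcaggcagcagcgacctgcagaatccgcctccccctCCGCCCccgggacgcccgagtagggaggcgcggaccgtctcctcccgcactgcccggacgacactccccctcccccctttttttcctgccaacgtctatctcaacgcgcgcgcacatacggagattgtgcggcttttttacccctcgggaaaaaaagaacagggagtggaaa
Amhr2, chr15:102445117-102445416, plus strand: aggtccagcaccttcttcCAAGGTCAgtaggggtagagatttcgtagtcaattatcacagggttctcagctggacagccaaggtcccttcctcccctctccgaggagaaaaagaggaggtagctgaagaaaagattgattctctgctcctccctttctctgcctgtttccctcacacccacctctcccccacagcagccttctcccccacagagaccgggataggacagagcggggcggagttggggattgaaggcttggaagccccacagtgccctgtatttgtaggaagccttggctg

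The letters were searched on both strands. GGGCGG lay in 35.7% of the 32851 promoters of full length and in 6 of the 8 members, and in Inhbb it spans bases -122 to -117 from the gene start. CAAGGTCA was rarer, in 1.56% of promoters, and among the members only Amhr2 held it, at -232 to -225. The SMAD half-site CAGAC, found in 49.6% of promoters, occurred in Inha, Fstl3, Acvr2a and Acvr2b and not in Inhbb or Amhr2. The letters AATATT, an AT-rich string of the kind bound by SALL4, a relative of SALL1, were in 6.81% of promoters and in 0 of the 8 members. The SMAD palindrome GTCTAGAC (0.213%), the WT1/EGR site GCGGGGGCG (2.91%) and the forkhead site GTAAACA (3.65%) were likewise in 0 of the 8, while TATAAA (13.6%) was in Inhba and Fstl3. The GC content was 64.3% for Inhbb and 55.3% for Amhr2, beside a median of 52.7% over the table. These matches describe letters in a window of 300 bases and show no binding.

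Levels were first ordered within the wild-type ovaries, as RPKM (CPM divided by exon length in kilobases), so that genes of different length can be compared. Amhr2 stood highest with 77.0 ± 10.8 RPKM (SD, n = 2), followed by Fst with 59.1 ± 1.17 RPKM. Over all 4 libraries these were the 96.2 and 94.3 percentiles of the 13713 genes tested that had a length. Acvr1b (14.0 ± 0.629 RPKM), Inha (13.6 ± 0.382 RPKM) and Inhbb (13.4 ± 2.03 RPKM) formed a middle group, in which neighbours overlapped between the replicates. Acvr2b (8.66 ± 0.688 RPKM) and Acvr2a (8.58 ± 0.174 RPKM), the type II receptors, did not differ beyond their spread either. Tgfbr3 followed with 6.56 ± 0.942 RPKM. Inhba (0.595 ± 0.113 RPKM) and Fstl3 (0.188 ± 0.0697 RPKM) were near the bottom of the genes detected, so that one beta subunit and one antagonist made up nearly all of each pair. Inhbb contributed between 93.9% and 96.6% of the beta subunit RPKM in each of the 4 libraries, and the division was of the same order in both genotypes.

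**Figure D1:**
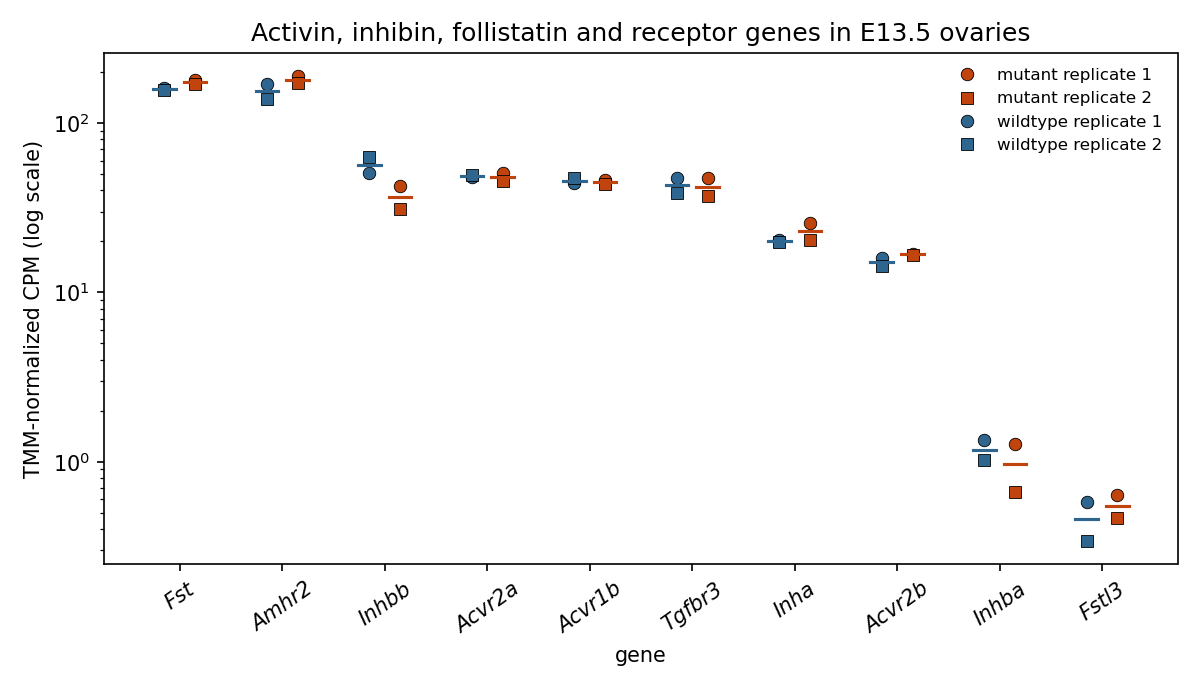
TMM-normalized CPM of the 10 genes (log axis) in each library, with circles for replicate 1, squares for replicate 2, blue for wild type, orange for mutant and short lines for the mean of 2 libraries. Inhbb lies at 31.0 and 42.3 CPM in the mutant libraries and at 50.8 and 63.0 CPM in the wild-type libraries, while Acvr2a, Acvr1b, Tgfbr3 and Inha overlap between the genotypes.

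Comparing mutant with wild-type ovaries, 0 of the 9 members tested passed the edgeR test at an adjusted p of 0.05, against 0.0583% of all genes, and DESeq2 with default settings also called 0 of 9, against 0.725% of all genes. At an unadjusted p under 0.05 edgeR gave 1 of 9, Inhbb, against 5.69% of all genes. The tenth member, Fstl3, did not pass the filter on low counts. The median log2 fold change of the 9 genes was -0.022, beside -0.00088 over all genes tested, and 4 were above and 5 below 0. The genotypes did not overlap for 4 of the 9 genes (Inhbb, Fst, Acvr2b and Amhr2), as for 30.9% of all genes. The column names give library numbers that are consecutive within each replicate number, although no label says what a replicate number marks. With the replicate number as a block in edgeR, 1 of the 9 members passed, Inhbb, against 2.49% of all genes. Permuting 2 libraries against 2 exactly gives no p below 0.333, so that the adjusted p-values depend on the spread that edgeR and DESeq2 pool over genes.

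Inhbb, the beta B subunit, had the largest difference of the members. It is a minus-strand gene of chromosome 1, from 121312042 to 121318825 (NCBIM37, the assembly also called mm9), and no other annotated gene overlaps it. Its level was 42.3 CPM in mutant replicate 1 and 31.0 CPM in mutant replicate 2, against 50.8 CPM in wild-type replicate 1 and 63.0 CPM in wild-type replicate 2. Both mutant libraries were thus below both wild-type libraries, and the gap between the nearest libraries was smaller than the gap within either genotype. The log2 fold change was -0.64 (SE 0.18, 95% interval from -1.07 to -0.21), or 1.56-fold lower (adjusted p = 0.537, edgeR). DESeq2 gave -0.64 (adjusted p = 0.136). Within each replicate number the mutant library was the lower one, and with the replicate block Inhbb passed in edgeR (log2 fold change -0.65, adjusted p = 0.0222). Of all genes tested, 6.81% had a fold change at least this large in either direction. With each library left out in turn the log2 fold change stayed below 0, but its size depended on the library. It was smaller without mutant replicate 2 (-0.43) or wild-type replicate 2 (-0.47), and larger without wild-type replicate 1 (-0.79). Without mutant replicate 1, the higher of the mutant libraries, it was largest, at -0.88. In that fit 1 of the 9 members was called, Inhbb, against 0.81% of all genes, and the single remaining mutant library is assumed to vary like the others. In bulk ovaries, fewer cells that express a gene and less RNA per cell cannot be told apart. The 7 endothelial markers, of which 0 were at 0 counts, had the same order of libraries in their summed level, 439 to 461 CPM in mutant and 480 to 502 CPM in wild-type ovaries. Most of that gap was Kdr, with 92.8 ± 3.22 CPM in the mutant and 127 ± 1.88 CPM in the wild type (SD, n = 2), while 3 of the 7 markers had fold changes above 0 and the list median was -0.021. For the 5 fetal Leydig cell markers the sums were 39.3 to 45.3 CPM and 47.3 to 57.1 CPM, with Insl3 at 0 counts in mutant replicate 1. Of the 4 Leydig markers tested 2 were above and 2 below 0, from Cyp11a1 at a log2 fold change of 1.11 to Hsd3b1 at -0.46. The sums of other lists went the other way. Pre-granulosa markers summed to 602 to 609 CPM in mutant and 529 to 547 CPM in wild-type ovaries. Sertoli cell markers summed to 20.1 to 20.5 and 16.6 to 19.0 CPM, and adrenal cortex markers to 2.26 to 3.27 and 1.59 to 2.21 CPM. The sums of the remaining lists overlapped between the genotypes. The part of any list in the difference of Inhbb was not tested.

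Inha, on chromosome 1 from 75503652 to 75506941, encodes the alpha subunit that turns a beta subunit into inhibin. It had 25.8 and 20.4 CPM in mutant replicates 1 and 2 and 20.5 and 19.7 CPM in the wild-type replicates. Mutant replicate 2 fell between the wild-type libraries, so that the higher mutant mean came from replicate 1, and the log2 fold change of 0.19 (95% interval from -0.17 to 0.56) did not pass (edgeR adjusted p = 1.00). Inhba, on chromosome 13 from 16103684 to 16119044, encodes the beta A subunit and had 14 and 10 counts in the mutant and 23 and 18 in the wild-type libraries. On so few counts the interval of its log2 fold change ran from -1.48 to 0.86, and no difference was detectable at this depth. The beta subunit genes of liver, Inhbc and Inhbe, had at most 1 count in any library.

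Fst is a minus-strand gene of chromosome 13, from 115242470 to 115249159. Its level was 180 and 170 CPM in mutant replicates 1 and 2, against 161 and 157 CPM in the wild-type replicates. The groups did not overlap and the replicates lay close together, but the difference was small, with a log2 fold change of 0.14 (SE 0.088, 95% interval from -0.072 to 0.35, adjusted p = 1.00, edgeR). Fst stayed above 0 with each library left out in turn, from 0.095 to 0.18 on the log2 scale, without passing the test. The pre-granulosa markers, a list of 7 genes without Fst of which 0 were at 0 counts, summed to 602 to 609 CPM in mutant and 529 to 547 CPM in wild-type ovaries. Most of that gap was Lgr5, with 158 ± 8.44 CPM in the mutant and 103 ± 8.51 CPM in the wild type (SD, n = 2), and the list ran from -0.80 for Bmp2 to 0.61 for Lgr5 with a median log2 fold change of 0.038. Their part in the level of Fst was not tested. The other antagonist, Fstl3, on chromosome 10 from 79240017 to 79245375, had 7 and 7 counts in the mutant and 10 and 6 in the wild-type libraries. Without the filter on low counts its log2 fold change was 0.23 with an SE of 0.65.

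Ratios within a library do not depend on how libraries are scaled, and were used to set antagonist and alpha subunit against the beta subunits. Fst RPKM was 6.32 and 8.29 times the sum of Inhba and Inhbb RPKM in mutant replicates 1 and 2, and 4.75 and 3.80 times that sum in the wild-type replicates. Both mutant libraries thus had more follistatin transcript per beta subunit transcript than either wild-type library. The difference of the mean log2 ratio was 0.77, or 1.70-fold, with an SD of 0.28 in mutant and 0.23 in wild-type ovaries (n = 2 each, exact permutation test, two-sided, p = 0.333, the smallest this design allows). Inha RPKM was 1.65 and 1.81 times the beta subunit sum in the mutant replicates and 1.10 and 0.872 times in the wild-type replicates. Here the difference of the mean log2 ratio was 0.82, or 1.76-fold, with an SD of 0.095 and 0.24 (n = 2 each, exact permutation test, two-sided, p = 0.333). Both ratios share the denominator, in which Inhbb prevails, and are not independent of each other. The sum itself was 10.6 and 7.63 RPKM in the mutant and 12.6 and 15.3 RPKM in the wild-type replicates.

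**Figure D2:**
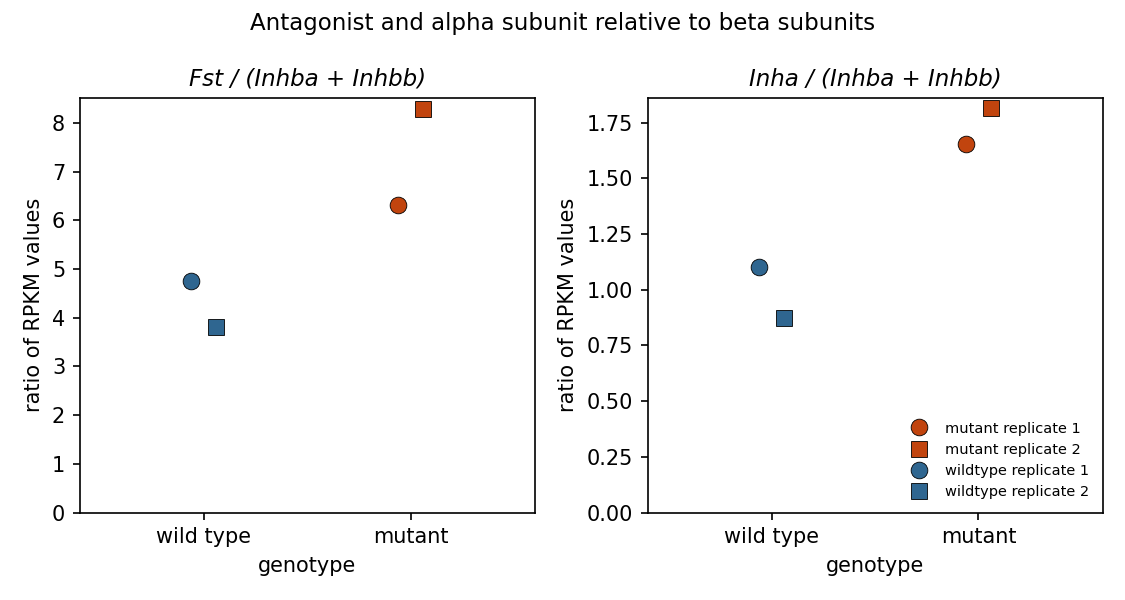
Ratio of Fst (left) and of Inha (right) to the sum of Inhba and Inhbb, from RPKM values on linear axes that start at 0, with one point per library. Mutant libraries sit at 6.32 and 8.29 on the left and at 1.65 and 1.81 on the right, above the wild-type libraries at 4.75 and 3.80 and at 1.10 and 0.872.

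Of the activin receptor genes, Acvr2a and Acvr1b had log2 fold changes close to 0. That of Acvr2b was larger, with an interval that included 0. Acvr2a, a type II receptor on chromosome 2 from 48669629 to 48758789, had 50.5 and 45.6 CPM in mutant replicates 1 and 2 and 48.1 and 49.5 CPM in the wild-type replicates. Its log2 fold change of -0.022 had a 95% interval from -0.29 to 0.24. Acvr2b, the other type II receptor, on chromosome 9 from 119311562 to 119342619, had 17.0 and 16.7 CPM in the mutant and 16.0 and 14.3 CPM in the wild-type replicates. The mutant libraries were both higher, by a log2 fold change of 0.15 with an interval from -0.21 to 0.50. For Acvr1b, the type I receptor on chromosome 15 from 101004556 to 101043032, values of 45.9 and 43.7 CPM in mutant and 44.3 and 47.2 CPM in wild-type ovaries overlapped, and the log2 fold change was -0.031, with an interval from -0.29 to 0.23. Acvr2a overlaps Orc4 on the opposite strand in the annotation, as Fstl3 does Prss57 and Tgfbr3 the pseudogene Gm8145. Reads of such a pair cannot be told apart where the counting did not use strand.

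Tgfbr3, the betaglycan gene (chromosome 5, minus strand, 107535589 to 107718648), differed more between replicates than between genotypes. It had 47.2 and 36.9 CPM in mutant replicates 1 and 2 and 47.3 and 38.6 CPM in the wild-type replicates, so that replicate 1 was higher in each genotype, by 0.36 and 0.29 on the log2 scale, while the fold change between genotypes was -0.034 (95% interval from -0.42 to 0.35). The sum of the 6 skeletal muscle markers was also higher in replicate 1 of each genotype, with 0 of the 6 at 0 counts. So was the sum of the 6 blood cell markers, at 3177 and 869 CPM in mutant replicates 1 and 2 and 3489 and 1679 CPM in the wild-type replicates, of which Hba-a1 was at 0 counts in both replicates 2. The part of either list in the level of Tgfbr3 was not tested.

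Amhr2, on chromosome 15 from 102275798 to 102285061, encodes the type II receptor of anti-Müllerian hormone and is transcribed in somatic cells of gonads and the Müllerian duct mesenchyme. Its level was 189 and 172 CPM in mutant replicates 1 and 2, against 170 and 139 CPM in the wild-type replicates. The lower mutant library thus just exceeded the higher wild-type library. The log2 fold change was 0.23 (SE 0.12, 95% interval from -0.061 to 0.51, adjusted p = 1.00, edgeR). The gene of its ligand, Amh, which Sertoli cells transcribe in the fetal testis, had 3 counts in each of the 4 libraries, which is the count taken here as the limit of detection. A highly expressed receptor gene was therefore measured beside a ligand gene at that limit in both genotypes.

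**Figure D3:**
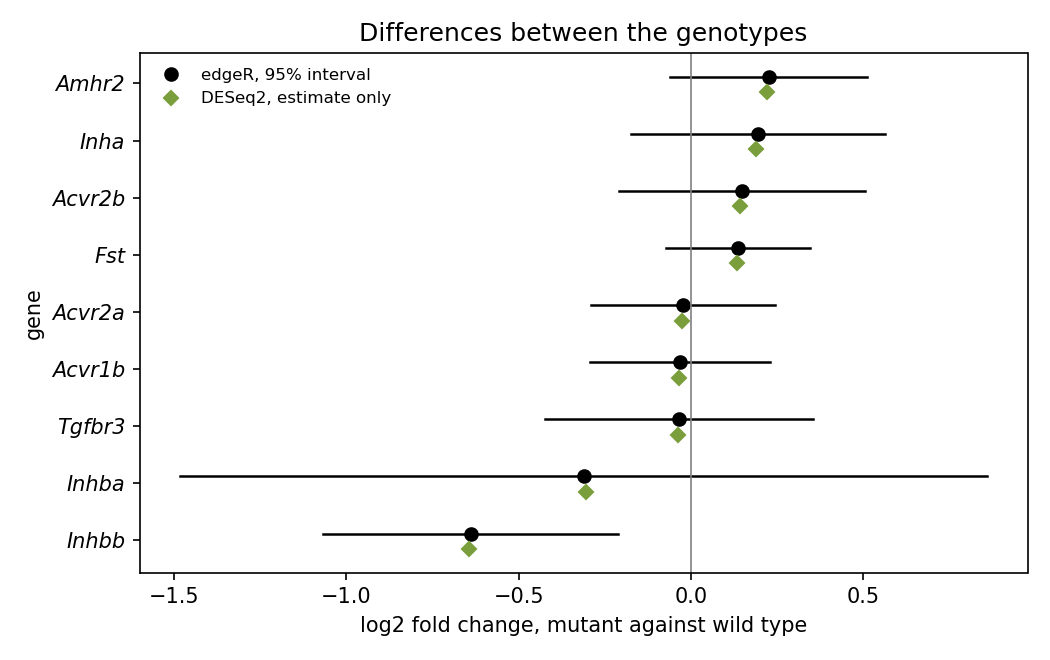
Log2 fold change of the 9 genes tested, mutant against wild type, with edgeR's estimate and 95% interval (black) and the DESeq2 estimate (green diamonds). Inhbb, at -0.64, has the only interval that does not reach 0, before adjustment for the number of genes, and Inhba has the widest, from -1.48 to 0.86.

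Beyond these genes, 56 further genes of the pathway were listed by role, of which 47 were tested. In edgeR's test 0 of the 47 passed, and DESeq2 called 2, Bmp2 and Tgfbi, both lower in the mutant ovaries, where 0.435% of all genes were called in that direction. At an unadjusted p under 0.05 edgeR gave 12 of the 47, with 4 higher and 8 lower in the mutant ovaries, beside 2.95% and 2.73% of all genes. The lists were chosen with earlier results of these data known, so these counts are no independent evidence about the pathway. Without mutant replicate 1 edgeR called Bmp2 and Tgfbi as well (log2 fold changes -0.89 and -0.55, adjusted p = 0.0303 and 0.0489), where 0.548% of all genes were called as lower in the mutant. With the replicate block 5 of the 47 passed in edgeR, beside 2.49% of all genes. Of these, Bmp2, Tgfbi and Pcsk5 were lower in the mutant ovaries, and Smad3 and Foxl2 were higher.

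Among 14 other ligand genes 7 were tested, with a median log2 fold change of 0.078 and none at an unadjusted p under 0.05. The smallest p-values belonged to Tgfb1, encoding TGF-beta 1 (log2 fold change -0.32, SE 0.19), and Nodal, encoding a ligand that shares the activin type I and II receptors (0.34, SE 0.53). Nodal rested on 11 to 19 counts a library and changed sign without mutant replicate 1. Of 12 other receptor and co-receptor genes, 10 were tested, with a median of -0.097. Acvr1c, an alternative type I receptor for activin B and Nodal, had 6 and 10 counts in the mutant and 24 and 37 in the wild-type libraries, and the log2 fold change was -1.51 (SE 0.46, edgeR adjusted p = 0.608). Both mutant values were below both wild-type values, but the counts are low. Bmpr1b, a type I receptor for bone morphogenetic proteins, was at 14.5 ± 0.472 CPM in the mutant and 9.82 ± 1.81 CPM in the wild-type ovaries (SD, n = 2), and the log2 fold change was 0.56 (SE 0.19, edgeR adjusted p = 0.737).

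Ligands of this family are cut from precursors by proprotein convertases. Pcsk5, one of these enzymes, was at 27.4 ± 3.86 CPM in the mutant and 39.9 ± 0.298 CPM in the wild-type ovaries (SD, n = 2), and the log2 fold change was -0.55 (SE 0.14, edgeR adjusted p = 0.430). Pcsk6, another, had 284 ± 11.9 CPM in mutant and 234 ± 13.8 CPM in wild-type ovaries and a log2 fold change of 0.28 (SE 0.092). The 2 convertase genes thus differed in opposite directions, and neither passed the adjusted threshold. The list of other antagonists and convertases had a median of -0.10 over 6 genes tested.

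In the list of SMADs and their partners all 12 genes were tested, and the median was -0.051. Smad3, which carries the activin signal to the nucleus, was at 207 ± 2.86 CPM in the mutant and 158 ± 16.5 CPM in the wild-type ovaries (SD, n = 2), and the log2 fold change was 0.40 (SE 0.10, edgeR adjusted p = 0.467). Smad2, its partner in the pathway, had a log2 fold change of 0.052 with an SE of 0.091. Smad5, which serves the BMP and anti-Müllerian hormone receptors, had -0.22 with an SE of 0.086.

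The 7 genes known to respond to SMAD2 and SMAD3 in many cell types were all tested, with a median log2 fold change of -0.20, and 6 of the 7 were below 0. Tgfbi, a matrix protein gene named for its induction by TGF-beta, had 208 and 198 CPM in mutant replicates 1 and 2, against 288 and 293 CPM in the wild-type replicates. Its replicates lay close together and its genotypes apart, with a log2 fold change of -0.52 (SE 0.085). Tgfbi passed by DESeq2 (adjusted p = 0.00156) and not by edgeR (adjusted p = 0.169). Pmepa1, whose product dampens SMAD signalling, was at 14.2 ± 0.554 CPM in the mutant and 20.8 ± 2.48 CPM in the wild-type ovaries (SD, n = 2), and the log2 fold change was -0.55 (SE 0.16, edgeR adjusted p = 0.537). Smad7 and Skil, feedback inhibitors in the same list, had log2 fold changes of -0.20 and -0.031 with SEs of 0.21 and 0.10.

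Of 5 regulators of Fst in the fetal ovary, all tested, Wnt4, Rspo1 and Ctnnb1 had log2 fold changes of 0.0088, -0.059 and 0.027. Bmp2, a BMP ligand gene of pre-granulosa cells, had 25.0 and 21.9 CPM in mutant replicates 1 and 2, against 42.7 and 38.5 CPM in the wild-type replicates. The groups were well apart, with a log2 fold change of -0.80 (SE 0.13), and Bmp2 fell by DESeq2 (adjusted p = 0.00893) but did not pass in edgeR's test (adjusted p = 0.167). Foxl2, a transcription factor gene of granulosa cells, had 46.3 and 44.1 CPM in the mutant and 28.0 and 32.0 CPM in the wild-type replicates, a log2 fold change of 0.59 (SE 0.12), and did not pass in either test (adjusted p = 0.301 by edgeR and 0.136 by DESeq2). The regulators with the largest differences, Bmp2 and Foxl2, thus lay on opposite sides of 0. Fst itself had a log2 fold change of 0.14 and did not pass the test. The part of either regulator in the level of Fst was not tested.

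**Figure D4:**
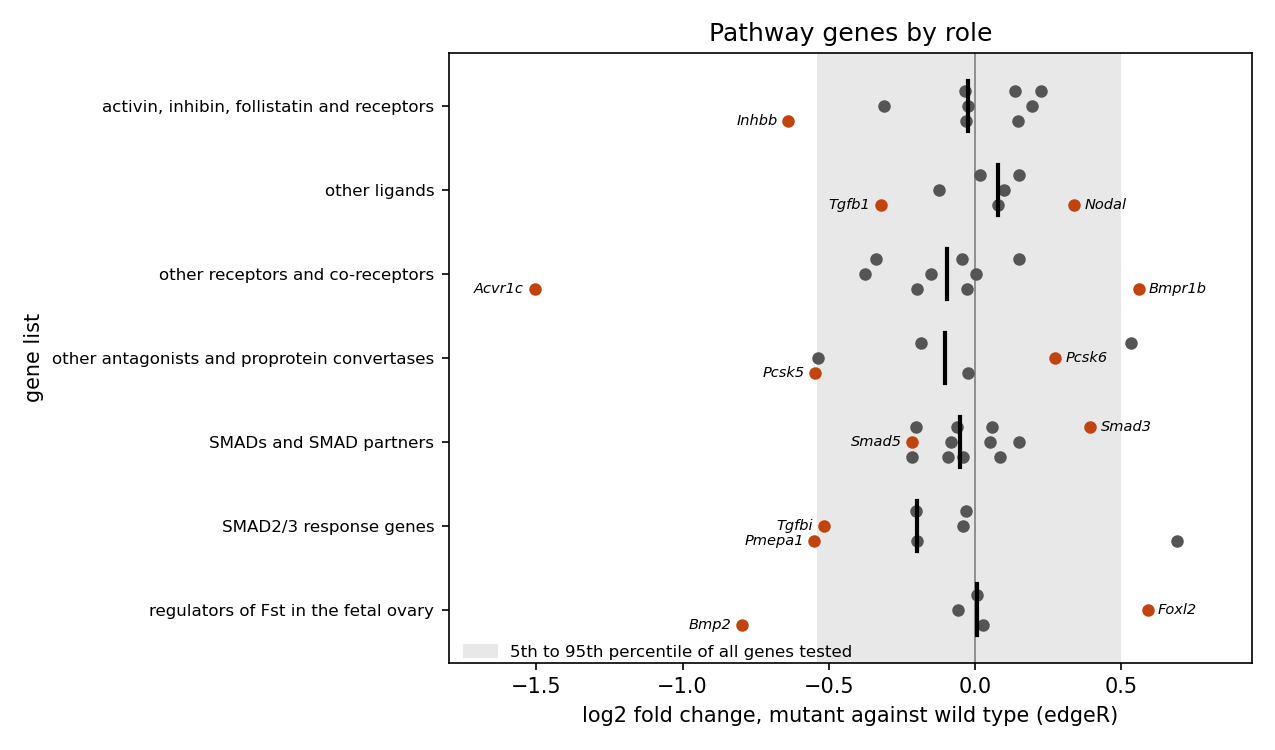
Log2 fold change of every tested gene of the pathway by list (edgeR, mutant against wild type), with black bars for the list medians, orange points for named genes and a grey band for the 5th to 95th percentile of all genes tested, -0.54 to 0.50. Medians lie between -0.20 and 0.078, and Inhbb, Acvr1c, Pcsk5, Pmepa1 and Bmp2 are beyond the lower edge of the band.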

How the data were processed

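Total RNA of whole E13.5 ovaries was sequenced on Illumina HiSeq. The authors aligned reads with STAR 2.6.1d, counted them per gene with the R function summarizeOverlaps and deposited the counts without normalization, and the submitters' processing notes name mm9. Annotation and strand handling are not given in the sources used here. Each column was matched to a sample by genotype and replicate number, and 0 were left out.

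Counts were analysed in R 4.3.3 with edgeR 4.0.16 (TMM, filterByExpr, quasi-likelihood F-test, genotype as the only factor, Benjamini-Hochberg adjustment over 15442 genes, threshold 0.05). The SE of a fold change is its size divided by the square root of F. DESeq2 1.42.0 with default settings, the authors' tool, was an alternative. The fit was tested on simulated data. Lengths and positions came from GENCODE M1 (NCBIM37). A count of 3 corresponds to 0.170 to 0.272 CPM and covers counting error only. Members, lists and tests were chosen with earlier results of these data known. The other pathway genes named are those called by either tool and the 2 with the smallest p of each list. Genes named beyond this rule were chosen after their values were seen.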

Additional observations from a re-analysis of the deposited data

How the results depend on the processing

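The number of genes called depended on the model. The 9 genes of the main setting became 28 with no filter, 19 with at least 10 counts in every library, 105 with DESeq2 and 134 with the likelihood ratio test, and 4 to 130 when one library was left out. The members called, 0 in the main setting, numbered 1 (Inhbb) with the replicate block and 0 to 1 with each library left out, and 0 under each of the other alternatives. The other pathway genes called, also 0, were 2 with DESeq2, 3 with the likelihood ratio test (Bmp2, Tgfbi and Foxl2, beside 0.868% of all genes), 5 with the replicate block and 0 to 2 with each library left out. The cause of these changes was not tested. The replicate numbers are shared between the genotypes, and library numbers in the column names are consecutive within each, but no label says that a number marks a litter or day. The deviations of same-numbered libraries from their genotype's mean correlated over genes at 0.481. The common dispersion, edgeR's measure of spread between replicates over all genes, was 0.0210 without the replicate block and 0.00639 with it. With the replicate block 385 genes were called, 2.49% of those tested, and Inhbb was among them (log2 fold change -0.65, adjusted p = 0.0222, edgeR), as were Bmp2, Tgfbi, Pcsk5, Smad3 and Foxl2. Over its 11 alternatives the adjusted p of Inhbb lay between 0.0222 and 1.00 and its log2 fold change between -0.88 and -0.43. The sign of small differences changed with a library left out, in Inhba (-0.82 to 0.11), Acvr2a (-0.099 to 0.050), Acvr1b (-0.076 to 0.026), Tgfbr3 (-0.22 to 0.13) and Nodal (-0.37 to 0.86). The difference of the log2 ratio of Fst to the beta subunits lay between 0.57 and 0.96, and that of Inha between 0.65 and 0.99, with each library left out. Depth limits Inhba and Fstl3, with 6 to 23 counts per library.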

Other observations

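The oocyte ligand genes of the family had few counts at this stage. Gdf9 had 16 and 26 counts in mutant replicates 1 and 2 and 32 and 18 in the wild-type replicates, and Bmp15 had 1 and 2 against 7 and 8 counts. Of the other type I receptor genes, Acvr1 and Acvrl1, chosen here after their values were seen, were lower in both mutant libraries. So were 15.1% of all genes tested. Tgfbr1 and Bmpr1a overlapped between the genotypes (log2 fold changes 0.0048 and -0.044). Acvr1 was at 25.9 ± 1.70 CPM in the mutant and 32.8 ± 0.792 CPM in the wild-type ovaries (SD, n = 2), and its log2 fold change was -0.34 (SE 0.12, edgeR adjusted p = 0.754). Acvrl1, a type I receptor gene of endothelial cells, was at 16.7 ± 0.816 CPM and 21.6 ± 1.44 CPM, and its log2 fold change was -0.38 (SE 0.14, edgeR adjusted p = 0.806).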
